A study of Mus musculus with 10 samples.

Results

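The extracellular matrix genes described here are the collagens, laminin chains and matrix proteoglycans and glycoproteins of the mouse retina. They were chosen by symbol, as every collagen gene named Col with a type and chain number, every laminin chain gene, and Vcan, Acan, Bcan, Ncan, Sparc, Fn1, Nid1, Nid2, Hspg2, Agrn, Tnc, Tnr, Lum and Dcn. The rule found 69 genes among the 36115 genes of the deposited count table, 44 of them collagens and 11 of them laminin chains. RNA sequencing counts came from retinas of untreated C57BL/6 mice aged 3 months. A set of 5 libraries carries the genotype label B6.129S2-Il6tm1Kopf/J, a line whose interleukin-6 gene is interrupted by an inserted cassette in every cell, and these KO-labelled libraries are called K1 to K5. The other 5 libraries are labelled wild type and called W1 to W5. Neither sex nor litter is labelled, nor whether each library is a different animal, so the p-values refer to the spread among these samples, part of which may be technical. Segments of the 129S2 genome that can travel with the allele cannot be told apart from the allele itself.

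Total counts ran from 32783048 to 38517067 in K1 to K5 and from 30433373 to 38857374 in W1 to W5. The targeted gene Il6 had 3, 3, 5, 7 and 4 counts in K1 to K5, against 0, 0, 1, 1 and 1 counts in W1 to W5. These counts went against the labels, and a count over the whole gene cannot resolve its interrupted part, so every direction below is that of the libraries as labelled. A list of 6 markers of Müller glia, the radial glia of the retina, among them Rlbp1 and Glul, summed to between 5640 and 6810 CPM in the KO-labelled libraries and between 5510 and 7560 CPM in wild type (CPM is a count scaled to library size). Lens markers summed to at most 1.78 CPM in the KO-labelled libraries and 1.85 CPM in wild type.

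The matrix of the retina has several compartments. Collagen IV chains and laminins each assemble into a sheet in basement membranes, such as the inner limiting membrane and the sheath of the vessels, and nidogens, perlecan and agrin join those sheets to each other and to cells. Collagens II, IX and XI form the fine fibrils of the vitreous. Lecticans, which are large chondroitin sulfate proteoglycans that bind hyaluronan, form with tenascin-R the loose matrix between neurons. In bulk tissue, fewer cells of a type and less RNA per cell cannot be told apart.

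The promoter windows of 4 genes are shown first, for the called genes Vcan and Col24a1 and for Col4a1 and Col4a2, a pair that starts head to head and moved together across libraries. Each is the RefSeq window of 250 bases before to 50 bases after the annotated start on GRCm38.p6, written 5′ to 3′ on the strand of the gene. The Vcan window is chr13:89742463-89742762 on the minus strand and the Col24a1 window is chr3:145292222-145292521 on the plus strand. Capitals in these 2 windows mark matches to any of the searched motifs, on either strand. The searched motifs were TTCNNNGAA (the STAT consensus), TGACGTCA (the cyclic AMP response element), TGANTCA (the AP-1 element), CCAAT (the CCAAT box), GGGCGG (the GC box) and TATAAA (the TATA box).
Vcan: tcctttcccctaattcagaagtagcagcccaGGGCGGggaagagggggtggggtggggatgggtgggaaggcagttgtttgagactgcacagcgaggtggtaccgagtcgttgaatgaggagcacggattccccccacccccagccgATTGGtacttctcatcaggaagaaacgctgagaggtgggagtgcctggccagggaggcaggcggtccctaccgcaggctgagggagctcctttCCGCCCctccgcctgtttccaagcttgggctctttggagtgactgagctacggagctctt
Col24a1: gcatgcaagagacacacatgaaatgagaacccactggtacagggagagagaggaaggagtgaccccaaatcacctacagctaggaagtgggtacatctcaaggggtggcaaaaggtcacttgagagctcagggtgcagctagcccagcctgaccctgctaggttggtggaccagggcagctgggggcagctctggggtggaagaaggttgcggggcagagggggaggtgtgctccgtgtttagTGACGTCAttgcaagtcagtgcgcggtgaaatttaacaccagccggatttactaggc
The Vcan window held 3 matches, the CCAAT box on the opposite strand and the GC box on each strand. The Col24a1 window held 1 match, TGACGTCA, a motif that was added to the search after this sequence had been read. No match overlapped another. A match describes the letters only.

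The Col4a1 window is chr8:11312777-11313076 on the minus strand and the Col4a2 window is chr8:11312555-11312854 on the plus strand. Capitals here mark the 78 bases that both windows hold, from 11312777 to 11312854, read in opposite directions.
Col4a1: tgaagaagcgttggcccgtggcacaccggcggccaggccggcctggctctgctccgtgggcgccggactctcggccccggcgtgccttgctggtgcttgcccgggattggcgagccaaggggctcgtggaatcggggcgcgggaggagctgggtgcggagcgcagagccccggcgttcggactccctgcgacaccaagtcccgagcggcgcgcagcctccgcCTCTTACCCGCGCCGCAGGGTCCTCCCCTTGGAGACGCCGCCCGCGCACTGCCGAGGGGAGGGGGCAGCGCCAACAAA
Col4a2: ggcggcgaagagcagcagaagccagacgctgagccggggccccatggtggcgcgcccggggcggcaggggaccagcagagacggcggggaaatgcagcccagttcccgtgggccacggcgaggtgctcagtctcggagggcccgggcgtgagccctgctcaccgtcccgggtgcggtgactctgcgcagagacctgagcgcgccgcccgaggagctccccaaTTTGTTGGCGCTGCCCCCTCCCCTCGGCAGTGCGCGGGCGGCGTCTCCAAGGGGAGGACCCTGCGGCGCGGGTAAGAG
Of the 69 genes, 50 had a window in the RefSeq set, and Col26a1 had none among those used here. The STAT consensus was found in the windows of 3 of these 50 genes (6.0%), against 8.3% of all 32851 windows. TGACGTCA was found for 1 gene (2.0%, against 1.79% of all windows), TGANTCA for 1 (2.0%, against 7.81%) and CCAAT for 18 (36.0%, against 37.4%). TATAAA was found for 7 genes, against 13.6% of all windows, and the GC box for 33 (66.0%, against 35.7%). All windows include those of noncoding genes and pseudogenes.

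Matrix transcripts of the retina covered a wide range of levels, given here as CPM per kb of exon so that genes of different length can be compared. Sparc, a secreted protein that binds collagen and calcium, stood above the others at 85.6 ± 7.79 CPM per kb in the KO-labelled libraries and 67.3 ± 11.4 in wild type (SD, n = 5 each). Col23a1, a collagen with a membrane-spanning stretch, stood at 16.1 ± 1.94 CPM per kb in the KO-labelled libraries and 15.3 ± 1.66 in wild type. Agrn, which encodes the heparan sulfate proteoglycan agrin, stood at 11.2 ± 2.12 CPM per kb in the KO-labelled libraries and 11.4 ± 3.05 in wild type. Col6a1, a chain of the beaded filaments, stood at 10.4 ± 3.22 CPM per kb in the KO-labelled libraries and 11.7 ± 5.77 in wild type. Col2a1, the main vitreous fibril collagen, stood at 8.66 ± 1.29 CPM per kb in the KO-labelled libraries and 8.11 ± 3.20 in wild type. The tenascin gene Tnr stood at 8.37 ± 1.20 CPM per kb in the KO-labelled libraries and 8.33 ± 0.433 in wild type. The median over the 64 members that were tested was 0.99 CPM per kb, taken over all 10 libraries.

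**Figure D1:**
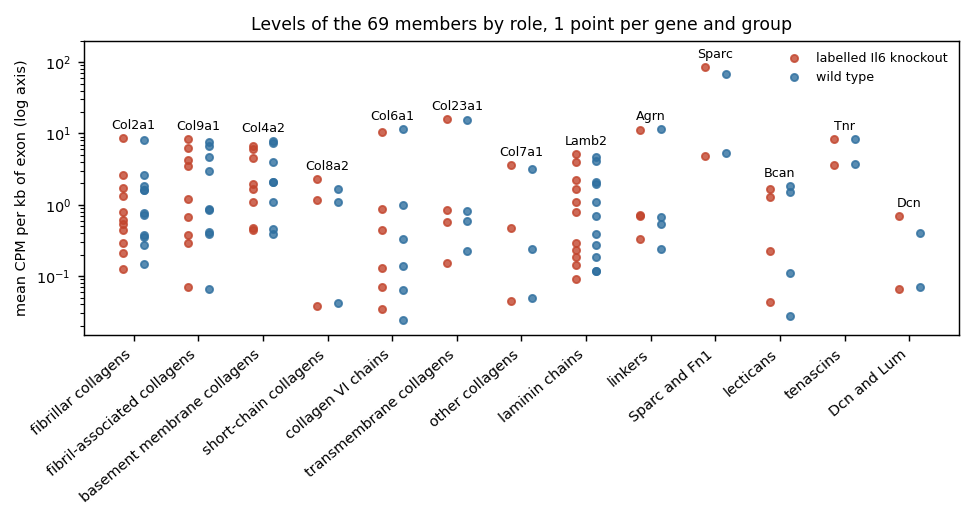
Mean level of each of the 69 matrix genes in CPM per kb of exon (log axis), by role, with 1 point per gene and group; red points are KO-labelled libraries and blue points wild type. Sparc is highest at 85.6 CPM per kb in the KO-labelled libraries and 67.3 in wild type, and in most roles a single named gene leads.

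Each role held genes of very different level. Among the basement membrane collagens, Col4a2 was the most abundant per kb, at 6.78 ± 1.51 CPM per kb in the KO-labelled libraries and 7.91 ± 2.08 in wild type, and Col4a1 stood at 5.98 ± 1.35 in the KO-labelled libraries and 7.28 ± 2.13 in wild type. Col18a1, the source of endostatin, followed at 4.54 ± 1.02 CPM per kb in the KO-labelled libraries and 3.98 ± 0.783 in wild type. The fibril-associated Col9a1, a vitreous collagen, stood at 8.27 ± 1.71 CPM per kb in the KO-labelled libraries and 7.55 ± 2.57 in wild type. Col20a1 followed at 6.35 ± 1.75 CPM per kb in the KO-labelled libraries and 6.67 ± 2.18 in wild type. Of the lecticans, Bcan (brevican) stood at 1.69 ± 0.318 CPM per kb in the KO-labelled libraries and 1.81 ± 0.521 in wild type, and Ncan (neurocan) at 1.28 ± 0.169 in the KO-labelled libraries and 1.49 ± 0.195 in wild type. Col7a1, the anchoring fibril collagen of epithelia, stood at 3.60 ± 1.41 CPM per kb in the KO-labelled libraries and 3.18 ± 1.36 in wild type.

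Laminins are trimers of an alpha, a beta and a gamma chain, and all 11 chain genes had counts that passed the filter. Summed per kb, the alpha chains reached 3.99 ± 0.546 CPM per kb in the KO-labelled libraries and 4.03 ± 0.470 in wild type, and the gamma chains 4.81 ± 0.424 in the KO-labelled libraries and 4.98 ± 0.279 in wild type. The beta chains summed to 6.94 ± 0.671 CPM per kb in the KO-labelled libraries and 6.80 ± 0.955 in wild type. Lama5 was the leading alpha chain gene, at 2.21 ± 0.360 CPM per kb in the KO-labelled libraries and 2.08 ± 0.367 in wild type, ahead of Lama1 at 1.08 ± 0.194 in the KO-labelled libraries and 1.10 ± 0.101 in wild type. Lamb2, the beta chain of the neuromuscular junction and the retina, led its class at 5.14 ± 0.481 CPM per kb in the KO-labelled libraries and 4.72 ± 0.946 in wild type, and Lamc1 led the gamma chains at 3.93 ± 0.298 in the KO-labelled libraries and 4.16 ± 0.146 in wild type.

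At the other end, 5 members had too few counts to pass the low-count filter. Summed over 5 libraries, Acan (aggrecan) had 57 counts in the KO-labelled libraries and 36 in wild type, and Col6a5 had 56 in the KO-labelled libraries and 41 in wild type. Col28a1 had 39 counts in the KO-labelled libraries and 44 in wild type, Lum (lumican, a corneal and scleral proteoglycan) had 28 in the KO-labelled libraries and 29 in wild type, and Col10a1, the collagen of hypertrophic cartilage, had 21 in the KO-labelled libraries and 24 in wild type. With the filter lifted, edgeR called none of the 5 at an adjusted p under 0.05, and counts this low allow little precision.

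The comparison of genotype labels asks how matrix expression in the uninjured retina differs where Il6 is disrupted. It was fitted over all 18965 genes that passed the low-count filter, and a gene was called at a Benjamini-Hochberg adjusted p under 0.05 from edgeR's quasi-likelihood test, with no fold threshold. Of the 64 tested matrix genes, Vcan and Col26a1 rose, Col24a1 fell, and 61 did not pass. The 3 calls are 4.69% of the members, against 2.03% of all tested genes (0.859% higher and 1.17% lower). At an unadjusted edgeR p under 0.05 there were 9 members (14.1%), against 13.8% of all tested genes, so the members as a whole stood near the background. The median log2 fold change of the members was -0.01, against 0.00 for all tested genes, with 31 members positive and 33 negative. The median size of the log2 fold change was 0.18 in the members and 0.11 in all tested genes. A positive log2 fold change means a higher level in the KO-labelled libraries.

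**Figure D2:**
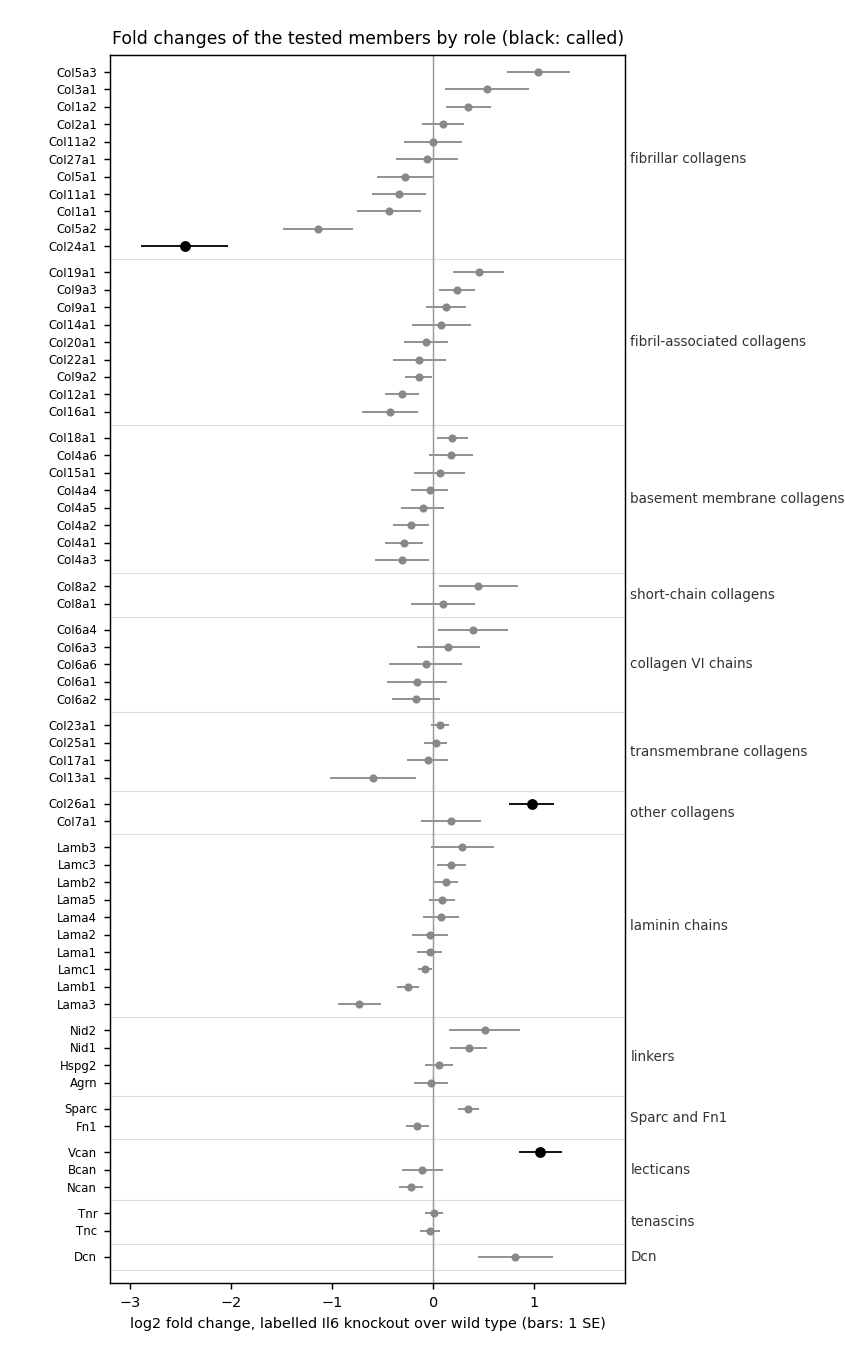
Log2 fold change of 63 of the 64 tested matrix genes, KO-labelled libraries over wild type, grouped by role, with bars of 1 SE. The called genes (black) are Vcan at 1.06, Col26a1 at 0.97 and Col24a1 at -2.46, and the members in grey did not pass the test.

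Vcan encodes versican, the large lectican of loose connective tissue and of developing neural tissue (ENSMUSG00000021614.16, chromosome 13, 89655312 to 89742509, GRCm38). It stood at 2.26, 2.88, 4.48, 3.24 and 3.61 CPM in K1 to K5, against 1.21, 1.51, 2.17, 1.52 and 1.48 CPM in W1 to W5. Every KO-labelled library lay above every wild-type library, by a narrow margin between K1 and W3. The means were 3.29 ± 0.830 CPM in the KO-labelled libraries and 1.58 ± 0.353 CPM in wild type (SD, n = 5 each), from 577 counts in the KO-labelled libraries and 280 in wild type. The log2 fold change was 1.06 ± 0.21 (SE) with an edgeR adjusted p of 0.0160. The call was lost without K3, at an edgeR adjusted p of 0.0503. Vcan has splice forms that differ in their chondroitin sulfate regions, and gene-level counts do not separate them.

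The other lecticans did not pass the test. Bcan and Ncan had log2 fold changes of -0.11 and -0.22, and the summed lectican level, in which Vcan is a minor part, was 19.7 ± 3.08 CPM in the KO-labelled libraries and 19.9 ± 2.39 CPM in wild type. Hapln1, which encodes the link protein that holds lecticans on hyaluronan, is the neighbour of Vcan on chromosome 13 (89539796 to 89611652). It stood at 1.83 ± 0.114 CPM in the KO-labelled libraries and 2.08 ± 0.338 CPM in wild type and did not pass (edgeR adjusted p = 0.693).

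Col26a1 encodes the chain of collagen XXVI, a short collagen first described in the testis and ovary (ENSMUSG00000004415.15, chromosome 5, 136741759 to 136883209). It stood at 3.95, 4.06, 3.67, 3.93 and 3.73 CPM in K1 to K5, against 2.96, 0.99, 1.85, 2.35 and 1.69 CPM in W1 to W5. The KO-labelled libraries lay close together and all above wild type, and W2 was the lowest. Sampling noise at the 127 to 145 counts of K1 to K5 is wider than their spread, so that closeness was not read as a trait. The means were 3.87 ± 0.163 CPM in the KO-labelled libraries and 1.97 ± 0.738 CPM in wild type, from 679 counts in the KO-labelled libraries and 346 in wild type. Its log2 fold change was 0.97 ± 0.22 (SE) with an edgeR adjusted p of 0.0351. The call was lost when any one of K1, K2, K3, K4, K5, W3 or W5 was left out, at edgeR adjusted p of 0.0547, 0.0716, 0.0693, 0.0894, 0.0719, 0.0708 and 0.0688. The gene lies on the same chromosome as Il6, 107 Mb beyond it, and it is the only member on that chromosome.

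Col24a1 encodes a minor fibrillar collagen known from developing bone and cornea (ENSMUSG00000028197.4, chromosome 3, 145292472 to 145552011). It stood at 1.61, 2.68, 1.89, 1.41 and 3.46 CPM in K1 to K5, against 11.8, 3.28, 8.17, 27.3 and 10 CPM in W1 to W5. The KO-labelled libraries were low throughout, and the wild-type libraries ranged widely, with W4 far above the rest and W2 below K5, so the groups overlapped in that single library. The means were 2.21 ± 0.851 CPM in the KO-labelled libraries and 12.1 ± 9.06 CPM in wild type, from 387 counts in the KO-labelled libraries and 2218 in wild type, of which W4 gave 1093. This gave a log2 fold change of -2.46 ± 0.43 (SE) with an edgeR adjusted p of 0.0055. Without W4 it was -1.91, with an edgeR adjusted p of 0.00524.

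**Figure D3:**
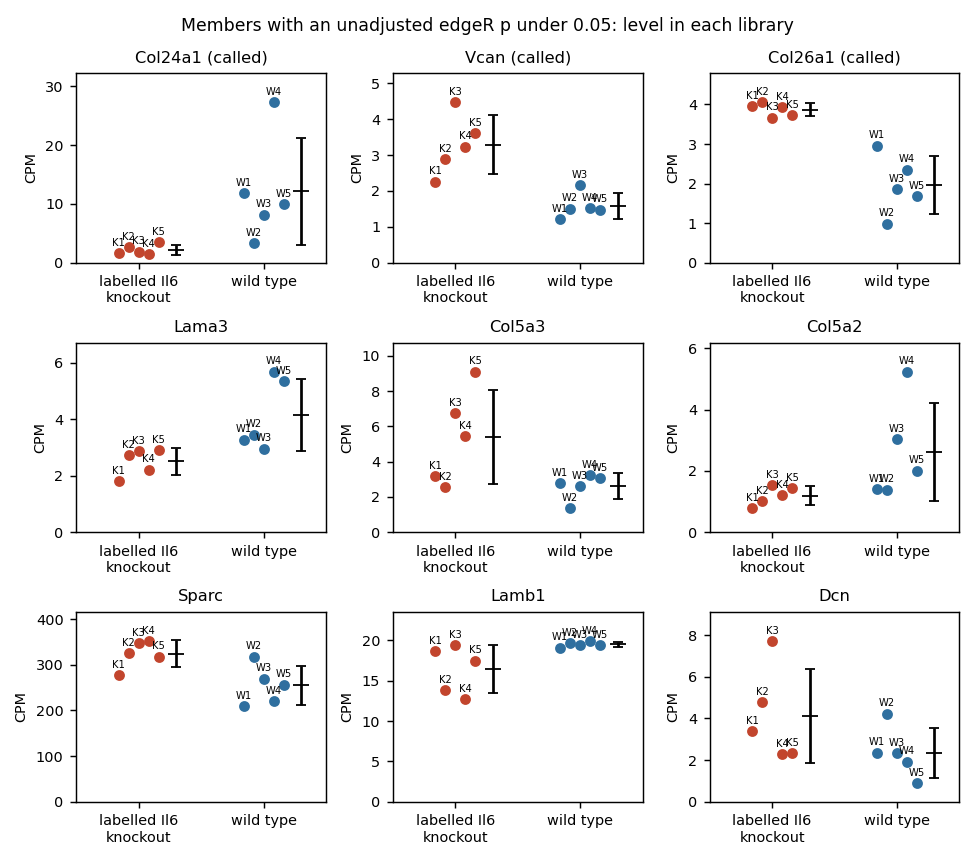
Level in CPM of the 9 matrix genes with an unadjusted edgeR p under 0.05, in each KO-labelled library (red, K1 to K5) and each wild-type library (blue, W1 to W5), with the mean and SD in black beside each group. The groups do not overlap in Vcan, Col26a1 and Lama3; in Col24a1 the wild-type library W4 reaches 27.3 CPM, while K1 to K5 lie at or below 3.46 CPM.

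In the authors' deposited table, an adjusted p under 0.05 was given to 5 of the 68 members that had one, against 3.37% of all genes with an adjusted p. The members were Vcan, Col26a1, Col24a1, Col5a2 and Lama3, and none of the 69 bore the authors' mark of significance. Deposited log2 fold changes of these 5 were 0.71, 0.67, -0.58, -0.53 and -0.50 in that order, each smaller in size than the edgeR value. DESeq2 1.42.0, run here on the deposited counts, gave 1.06 for Vcan, 0.98 for Col26a1 and -2.45 for Col24a1, near the edgeR values. The deposited sizes are therefore not a like measure, and they do not show a weaker change. Col5a2 and Lama3 had deposited adjusted p of 0.0225 and 0.0213 in the authors' deposited table, and neither was called by edgeR. The count of called members was 1 without K3 and 5 without W2, where 1.36% and 2.81% of all tested genes were called. DESeq2 called 6 members, adding Sparc to the 5 above, against 3.7% of all tested genes. Groups that did not overlap were seen in Vcan, Col26a1 and Lama3, which is 4.69% of the tested members, against 3.48% of all tested genes.

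Among the fibrillar collagens, 1 fell and 10 did not pass. Col5a2 and Col5a3 encode chains of collagen V, which joins collagen I fibrils and limits their width. Col5a2 stood at 0.79, 1.02, 1.53, 1.20 and 1.44 CPM in K1 to K5, against 1.40, 1.39, 3.04, 5.24 and 2.01 CPM in W1 to W5, with overlap between the groups and W4 again the highest. Its log2 fold change was -1.14 ± 0.34 (SE, edgeR adjusted p = 0.119). Col5a3 stood at 3.16, 2.54, 6.76, 5.43 and 9.10 CPM in K1 to K5, against 2.80, 1.36, 2.62, 3.22 and 3.05 CPM in W1 to W5. K3, K4 and K5 lay above all wild-type libraries, while K1 and K2 lay among them, and the log2 fold change was 1.04 ± 0.31 (SE, edgeR adjusted p = 0.117). The partner chain Col5a1 had a log2 fold change of -0.28, so the chains of collagen V had values of both signs. Collagen I, the main collagen of sclera and other dense tissue, was low in these retinas. Col1a1 stood at 0.534 ± 0.334 CPM per kb in the KO-labelled libraries and 0.722 ± 0.161 in wild type, and Col1a2 at 0.450 ± 0.144 in the KO-labelled libraries and 0.354 ± 0.0886 in wild type.

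Of the 11 laminin chain genes none was called, and 5 had positive and 6 negative log2 fold changes. Lama3, a laminin alpha chain of epithelial basement membranes, stood at 1.80, 2.74, 2.87, 2.22 and 2.91 CPM in K1 to K5, against 3.28, 3.46, 2.96, 5.69 and 5.36 CPM in W1 to W5. All KO-labelled libraries lay below all wild-type libraries, by a small margin between K5 and W3. Its log2 fold change was -0.73 ± 0.21 (SE, edgeR adjusted p = 0.108). The 6 markers of cornea and ciliary body, among them epithelial keratins, summed to between 11.9 and 38.0 CPM in the KO-labelled libraries, highest in K5, and to between 9.95 and 39.3 CPM in wild type, highest in W1 and lowest in W5. Of these markers 4 had negative and 2 positive log2 fold changes, with a median of -0.80, none was called, and their part in the Lama3 level was not tested. Lamb3, a beta chain of the same membranes, stood at 0.144 ± 0.0576 CPM per kb in the KO-labelled libraries and 0.118 ± 0.0356 in wild type, with a log2 fold change of 0.29, and did not pass.

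Lamb1, the beta chain of many embryonic and vascular laminins, had the lowest coefficient of variation of the 64 tested members among the wild-type libraries, 1.7% in wild type; in the KO-labelled libraries it was 18.1%. It stood at 18.7, 13.8, 19.4, 12.7 and 17.5 CPM in K1 to K5, against 19.1, 19.7, 19.4, 19.9 and 19.4 CPM in W1 to W5. K2, K4 and K5 lay below the wild-type range, K1 just below it and K3 within it. The log2 fold change was -0.25 ± 0.11 (SE, edgeR adjusted p = 0.330).

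Of the other roles, none of the 8 basement membrane collagens, 4 linkers, 2 short-chain collagens, 5 collagen VI chains, 9 fibril-associated collagens, 4 transmembrane collagens or 2 tenascins was called. Their log2 fold changes ran from -0.31 to 0.19 in the basement membrane collagens, from -0.02 to 0.51 in the linkers, from -0.17 to 0.39 in the collagen VI chains and from -0.43 to 0.45 in the fibril-associated collagens. They ran from -0.60 to 0.07 in the transmembrane collagens, from 0.10 to 0.45 in the short-chain collagens and from -0.03 to 0.01 in the tenascins. Sparc stood at 278, 326, 348, 352 and 318 CPM in K1 to K5, against 210, 318, 270, 220 and 257 CPM in W1 to W5. W2 lay within the range of the KO-labelled libraries and the other wild-type libraries below it. The log2 fold change of Sparc was 0.35 ± 0.11 (SE, edgeR adjusted p = 0.127), and without W2 it was 0.44, with an edgeR adjusted p of 0.0161. Fn1, which encodes fibronectin, had a log2 fold change of -0.16 and did not pass. Dcn, which encodes decorin, a small proteoglycan of connective tissue, stood at 3.40, 4.80, 7.71, 2.28 and 2.35 CPM in K1 to K5, against 2.36, 4.23, 2.35, 1.92 and 0.89 CPM in W1 to W5. Its groups overlapped and its log2 fold change was 0.81 ± 0.37 (SE, edgeR adjusted p = 0.351).

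The collagen IV genes lie in head-to-head pairs, and the pair of Col4a1 and Col4a2 shares the 78 bases printed above. Col4a1 stood at 30.1, 38.2, 53.4, 50.8 and 50.6 CPM in K1 to K5, against 69.1, 33.6, 53.6, 70.8 and 44.7 CPM in W1 to W5. Col4a2 stood at 31.3, 37.2, 51.5, 51.9 and 52.8 CPM in K1 to K5, against 65.2, 35.5, 50.1, 67.3 and 43.6 CPM in W1 to W5. The partners stood within a few CPM of each other in every library while both varied between libraries. Per kb, the ratio of Col4a1 over Col4a2 ran from 0.850 to 0.919 in the KO-labelled libraries and from 0.839 to 0.949 in wild type. Neither passed the test: Col4a1 had a log2 fold change of -0.29 (edgeR adjusted p = 0.552) and Col4a2 one of -0.22 (edgeR adjusted p = 0.630). The annotated exons of the pair overlap by 22 bases on opposite strands, and no source used here states whether the counting used strand.

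The pair of Col4a3 and Col4a4, whose products form a separate network with Col4a5, was looser. Their ratio per kb ran from 1.35 to 2.01 in the KO-labelled libraries and from 1.27 to 2.53 in wild type. Col4a3 stood at 17.8, 23.3, 16.2, 12.2 and 13.2 CPM in K1 to K5, against 13.5, 31.4, 12.9, 31.5 and 13.3 CPM in W1 to W5, with W2 and W4 apart from the other wild-type libraries. Col4a4 stood at 8.37, 13.2, 9.33, 16.5 and 11.1 CPM in W1 to W5, so W2 and W4 were its highest wild-type libraries too. In K1 to K5 Col4a4 stood at 14.1, 12.3, 12.5, 7.83 and 10.3 CPM. An annotated gene on the opposite strand overlaps 563 bases of the exons of Col4a3, so some of its reads may belong there. The ratio of Col4a5 over Col4a6, a pair on the X chromosome, ran from 3.32 to 5.66 in the KO-labelled libraries and from 3.65 to 6.68 in wild type.

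**Figure D4:**
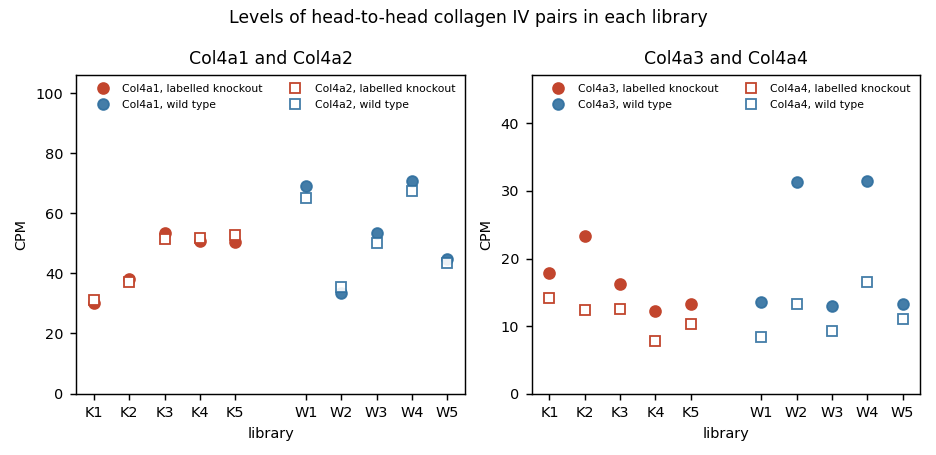
Level in CPM of Col4a1 and Col4a2 (left) and of Col4a3 and Col4a4 (right) in each library, with KO-labelled libraries in red and wild type in blue, filled circles for the first gene of a pair and open squares for the second. Col4a1 and Col4a2 lie on each other in all 10 libraries, from 30.1 to 70.8 CPM for Col4a1. Col4a3 reaches 31.4 CPM in W2 and 31.5 CPM in W4, where Col4a4 lies at 13.2 and 16.5 CPM, its highest wild-type levels.

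Other collagen partner chains kept less even ratios. Col6a1 over Col6a2 ran from 8.63 to 15.1 per kb in the KO-labelled libraries and from 7.18 to 13.3 in wild type. Col9a1 over Col9a2 ran from 1.69 to 2.46 in the KO-labelled libraries and from 1.12 to 2.13 in wild type. Col11a1 over Col11a2 ran from 0.217 to 0.262 in the KO-labelled libraries and from 0.242 to 0.414 in wild type. Col5a1 over Col5a2 ran from 9.49 to 12.7 in the KO-labelled libraries, against 11.5, 4.59, 4.45, 5.18 and 7.39 in W1 to W5. Only W1 of the wild-type libraries lay within the range of the KO-labelled libraries in that ratio. Among laminin chains, Lamb1 over Lamc1 ran from 0.453 to 0.484 in wild type, a spread smaller than sampling noise of the counts alone would give. In the KO-labelled libraries that ratio ran from 0.321 to 0.505. Ratios of partner chains were not tested.

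The members varied more among libraries of one group than genes in general. The coefficient of variation had a median of 21.7% over the tested members in the KO-labelled libraries and 29.7% in wild type. Over all tested genes it was 12.2% in the KO-labelled libraries and 13.5% in wild type. The wild-type spread was the wider one in 46 of the 64 members, and in 54.6% of all tested genes. Single libraries stood at the end of their group's range in many members. K1 was the lowest KO-labelled library in 30 of the 64 members (46.9%, against 24.1% of all tested genes) and K5 the highest in 27 (42.2%, against 22.2%). K3 was the highest KO-labelled library in 26 members (40.6%, against 18.6%). Among the wild-type libraries, W4 was the highest in 33 members (51.6%, against 21.9%) and W2 the lowest in 29 (45.3%, against 28.5%). The summed level of the fibrillar collagens was 118, 163, 170, 143 and 205 CPM in K1 to K5, against 158, 105, 192, 259 and 126 CPM in W1 to W5. The summed collagen VI chains stood at 38.8, 54.9, 65.6, 53.5 and 83.1 CPM in K1 to K5, against 58.4, 23.4, 58.3, 108 and 74.4 CPM in W1 to W5.

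**Figure D5:**
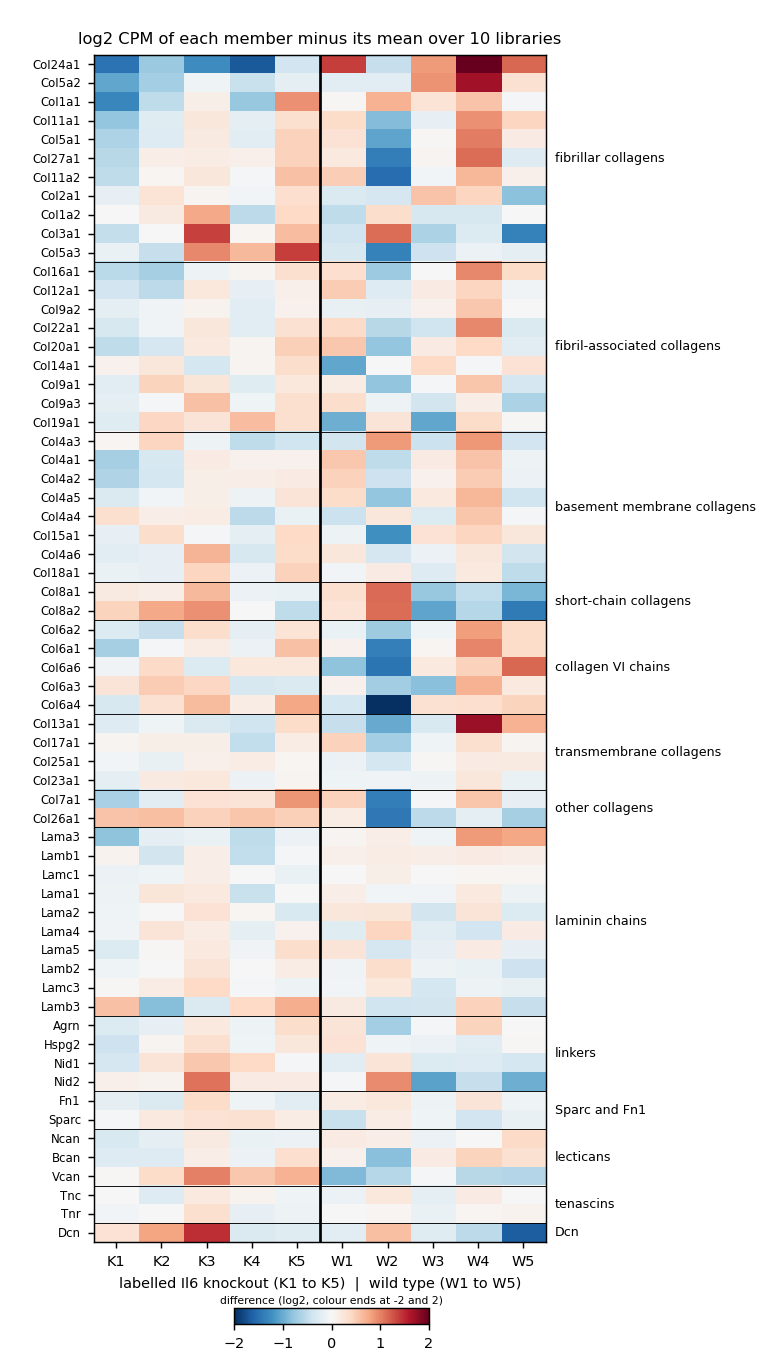
Difference on the log2 scale between the CPM of 63 of the 64 tested matrix genes in a library and the mean of that gene over 10 libraries, with KO-labelled libraries left of the black line and wild type right of it, and genes grouped by role. Over all 64 genes, W4 is the highest wild-type library in 33 and W2 the lowest in 29.

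Other genes departed from that order and stood beside markers of neighbouring tissue. Col8a1 and Col8a2, collagens of the corneal Descemet's membrane, had summed levels, together with Col10a1, of 19.9, 22.2, 27.4, 15.4 and 13.1 CPM in K1 to K5, against 19.7, 34.7, 8.75, 11.2 and 7.40 CPM in W1 to W5. The 8 markers of the retinal pigment epithelium summed to 255, 301, 364, 224 and 199 CPM in K1 to K5, against 343, 466, 109, 174 and 54.6 CPM in W1 to W5. In both sums W2 was the highest and W5 the lowest of the wild-type libraries, and K3 the highest and K5 the lowest of the KO-labelled libraries. Parts of that order were also seen in other lists. For 8 pericyte and smooth muscle markers W2 (184 CPM) was highest and W5 (145 CPM) and K5 (147 CPM) lowest, but K2 (189 CPM) was the highest KO-labelled library. For 7 endothelial markers W2 and K3 were highest and K5 lowest, but W1 (383 CPM) was the lowest in wild type. None of these pigment epithelium markers was at 0 in any library and none was called, and 4 of the 8 had a positive log2 fold change. Their part in the collagen VIII levels was not tested. Fibroblast markers were low, with 7 genes summing to between 3.54 and 6.24 CPM in the KO-labelled libraries and between 3.67 and 5.19 CPM in wild type. Osr1 and Twist2 were at 0 in some libraries, and K3, the library with the highest sum, was also the highest for Dcn, Col3a1 and Nid2, a relation that was not tested. These are among the 26 members in which K3 was the highest KO-labelled library. Other annotated genes overlap 437 exon bases of Nid2 and 141 of Col3a1, so some of their reads may belong there. The 7 endothelial markers summed to between 362 and 440 CPM in the KO-labelled libraries and between 383 and 524 CPM in wild type, and no marker of that list was called. Of these 7 markers, 6 had a positive log2 fold change. Kdr, the largest part of the sum, had one of -0.36, from means of 180 CPM in the KO-labelled libraries and 231 CPM in wild type. The 8 markers of meninges and optic nerve sheath summed to between 200 and 384 CPM in the KO-labelled libraries, highest in K3, and between 76.7 and 438 CPM in wild type, highest in W2 and lowest in W5, with none called. That order followed 1 gene of the list, Ptgds, at 323 CPM in K3, 393 CPM in W2 and 32.2 CPM in W5. Mbp, another of the list, stood at 33.1 CPM in W2 and 30.6 CPM in W5.

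Genes that receive, fold, cut or organise the matrix were read from 6 lists of 139 genes in all, of which 135 were tested. A single gene, Fmod, was called, which is 0.741% of those tested, against 2.03% of all tested genes. None of the 20 collagen and laminin receptors was called (9 positive, 11 negative), nor any of the 25 genes of collagen folding and crosslinking (17 positive, 8 negative) or of the 21 proteases and inhibitors (9 positive, 12 negative). In the TGF-beta axis, 11 of 18 tested genes had a positive log2 fold change and none was called. In the hyaluronan and link protein list, 12 of 14 tested genes had a negative log2 fold change (median -0.11) and none was called.

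Fmod encodes fibromodulin, a small proteoglycan that binds collagen fibrils (ENSMUSG00000041559.7, chromosome 1, 134037254 to 134048277). It stood at 5.53, 5.56, 12.1, 6.12 and 9.98 CPM in K1 to K5, against 2.48, 4.70, 4.04, 3.00 and 2.37 CPM in W1 to W5. Every KO-labelled library lay above every wild-type library, and K3 and K5 stood highest. The log2 fold change was 1.24 ± 0.25 (SE) with an edgeR adjusted p of 0.0171. Without K5 the call was lost, at an edgeR adjusted p of 0.0552. Optc and Prelp, small proteoglycan genes beside Fmod on chromosome 1 (133897199 to 133907999 and 133910304 to 133921414), were named after their values were seen. Optc, which encodes opticin of the vitreous and is 1 of the 2 markers with a positive log2 fold change in the cornea and ciliary body list, stood at 5.56 ± 2.47 CPM in the KO-labelled libraries and 2.43 ± 0.832 CPM in wild type (log2 fold change 1.19, edgeR adjusted p = 0.0585). Prelp stood at 48.6 ± 3.68 CPM in the KO-labelled libraries and 41.5 ± 9.20 CPM in wild type (log2 fold change 0.23, edgeR adjusted p = 0.416). Impg2, which encodes a proteoglycan of the matrix around photoreceptors and was also named after its values were seen, stood at 457, 250, 287, 305 and 266 CPM in K1 to K5, against 606, 376, 406, 452 and 769 CPM in W1 to W5. K1 lay within the wild-type range and the other KO-labelled libraries below it, and the log2 fold change was -0.74 ± 0.19 (SE, edgeR adjusted p = 0.0672).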

How the data were processed

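The deposited values are unnormalized whole-number read counts for 36115 genes in 10 libraries. STAR 2.5.3a, featureCounts 1.15.2, DESeq2 1.14 and GRCm38.p5 are named in the submitters' processing notes. Settings for strand, multi-mapping reads and overlaps are not given in those sources, and 21 of the 69 members have exons that overlap another gene. Knockout is over control in the authors' own DESeq2 columns, per the file headers. Their deposited log2 fold changes and deposited p-values were read for the members, and the deposited mean signal (counts over size factors) was not used.

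Genes were kept with edgeR's filterByExpr (edgeR 4.0.16, minimum count 10, minimum total 15), scaled with TMM factors and tested over 18965 genes with glmQLFit and glmQLFTest, the model holding genotype alone. The SE is the absolute log2 fold change over the square root of the F statistic. The test was run on simulated data with known changes, drawn from the means and spread that the same fit estimated. Such data cannot show how the test handles shifts of single libraries. Exon lengths and overlaps came from GENCODE M21 on GRCm38, where 67 of the 69 members had the same coordinates. Replicate pairs differed by more than sampling noise in all 20 pairs, with a chi-square per gene of at least 10.9. Alternatives were other scaling factors, DESeq2 1.42.0, limma-voom (limma 3.58.1), other filters and leaving libraries out. Genes were named by rule where they were called members, members with an unadjusted p under 0.05, up to 3 of the most abundant per kb in each role, members removed by the filter, collagen IV pairs, or called genes of the 6 lists. Other genes with values (partner chains such as Col1a1, Col1a2, Col5a1 and Lamb3, genes in the outlier check, and Hapln1, Optc, Prelp and Impg2) were chosen after their values were seen. The members, roles, lists and tests were chosen with earlier results of these data known. A single member is counted but not reported by name here.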

Additional observations from a re-analysis of the deposited data

Results flagged for a closer look

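A library stood far from the other 4 of its group in 7 of the 128 sets formed by the 64 tested matrix genes and both groups, where the gap to the nearest library as a share of the range is set against a limit of 0.71. Chance alone gives about 1 such set in 20. Among the KO-labelled libraries, K3 was the high one in Nid2 (0.938 of the range), Tnr (0.747) and Fn1 (0.734), and K4 was the low one in Col17a1 (0.82). In wild type, W2 was the high one in Nid1 (0.806) and Col3a1 (0.755), and W4 was the high one in Col23a1 (0.849). None of these 7 genes was called by edgeR.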

How the results depend on the processing

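Over 17 alternatives, no direction reversed among the 9 matrix genes with an unadjusted edgeR p under 0.05 or in Fmod, Col4a1 and Col4a2. Col24a1 was called in all 17 (adjusted p at most 0.0472), Vcan in 15 and Col26a1 in 9. DESeq2 called 702 genes over the whole table (314 higher, 388 lower), which is 3.7% of 18959. It called 6 of 64 matrix members, in 5 roles, and 4 genes of the pathway lists. Without a low-count filter there were 704 (298 higher, 406 lower), 6 members and 6 pathway genes. Leaving out K5 and W5 together gave 107 genes higher, 1 member (Col24a1) in 1 role and 0 pathway genes, with 1.51% of all tested genes called. In that setting Vcan and Col26a1 had edgeR adjusted p of 0.0836 and 0.13. Leaving out each library in turn, the whole table gave 211 to 542 calls (71 to 253 higher, 140 to 289 lower), or 1.1% to 2.81% of tested genes. The members then gave 1 to 5 calls in 1 to 4 roles, and the pathway lists 0 to 6. The cause of these shifts was not tested. Lama3, Col5a2 and Sparc were also called by DESeq2 (adjusted p 0.0263, 0.0264 and 0.0444), Lama3, Col5a2 and Col5a3 without a low-count filter (0.0496, 0.0243 and 0.0147), Col5a2 and Sparc without W2 (0.0441 and 0.0161), and Col5a3 without K2 (0.0489). No paired analysis was possible because the labels carry no replicate numbers. Depth limits the precision of the 5 members under the low-count filter, which had between 21 and 57 counts over 5 libraries.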

Other observations

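The library differences among matrix genes were set beside the base composition of their longest annotated transcripts, as a description. The 64 tested members had a median GC content of 54.5%, against 49.3% over the 18914 tested genes with a transcript. Over the 64 members, the difference of K5 from the other KO-labelled libraries on the log2 scale had a correlation of 0.43 with GC content, and that of W2 from the other wild-type libraries a correlation of -0.33. The points share their library, and over all tested genes the same correlations were 0.09 and 0.01. These 2 were the largest in size over the members. In the other libraries the correlation over the members ran from -0.26 in K2 to 0.31 in W1, with -0.19 in K1 and 0.20 in W4. The log2 fold change between the groups had a correlation of -0.01 with GC content over the members.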
